A study of Mus musculus with 12 samples.

Results

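The genes described here are 9 transcription regulators of the pachytene spermatocyte and spermatid program, Tcfl5, Sox30, Taf4b, Tbp, Tbpl1, Gtf2a1l, Sox5, Fhl5 and Zmynd15, out of 21938 protein-coding genes of the GENCODE M21 annotation on mm10. They were chosen by name. Of them, 8 are testis-restricted or testis-enriched regulators and Tbp, the TATA-binding protein used by every cell, served as the contrast. A dREG peak was assigned to a gene as a promoter peak when its edge lay under 1000 bp from any annotated transcription start site (TSS) of that gene. A peak inside the gene and at least 1000 bp from all of its own TSSs was a gene-body peak.

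Nascent transcription was measured by leChRO-seq, a chromatin run-on assay that labels the RNA of engaged RNA polymerase, in spermatocytes of adult wild type mice. Cells were enriched for leptonema/zygonema, pachynema or diplonema by STAPUT, a sedimentation method that yields enriched and not pure fractions, and the study's methods name the C57Bl/6J and DBA/2J backgrounds for its experiments as a whole. Each substage had 4 libraries, which made 12 altogether. The study merged the 4 libraries of a substage and ran dREG on them once. This tool finds transcriptional regulatory elements (TREs) from paired divergent run-on signal, so that each substage has 1 list and no replicate spread. The lists held 71107, 68352 and 38603 peaks in leptonema/zygonema, pachynema and diplonema, respectively. Differences between substages are therefore given as values, with no test. Read counts are not part of the lists, and the normalization factors that the study's methods list for each library were not used here. These factors combine library size with the relative transcriptional activity of the substage, taken from radioactive run-on assays.

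In prophase I the spermatocyte switches on many genes whose products are needed only after meiosis, and this is done partly with germ cell versions of the general initiation machinery. TBP nucleates initiation at most promoters, TBPL1 is its paralog, GTF2A1L is the testis form of the large TFIIA subunit, and TAF4B is the germ cell paralog of the TFIID subunit TAF4. TCFL5 is a basic helix-loop-helix factor of spermatocytes, SOX30 activates genes of the round spermatid, and SOX5 has a short testis form that is transcribed from inside the gene. FHL5, also called ACT, is a LIM-domain coactivator of CREM, the master regulator of spermatid genes, and ZMYND15 is a histone deacetylase-dependent repressor that holds back haploid genes.

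Every one of the 9 genes had a promoter peak in all 3 substages. The shares of all protein-coding genes with a promoter peak were 60.2%, 60.5% and 51.6% in the same order of substages, and 49.5% had one in all 3. The regulators of the spermatid program thus already carried a called promoter TRE in the earliest fraction, as did Tbp. The leptonema/zygonema, pachynema and diplonema lists held 29, 29 and 23 promoter peaks of the 9 genes, and many of these adjoin each other. When adjoining peaks were joined there were 14, 14 and 12. With the lists trimmed to equal size by score there were 19, 21 and 23, so that the order of the substages turned. The median gene with a promoter peak had 2 in each list.

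Because the dREG score is not scaled between lists, the best promoter score of each gene was ranked within its list. The promoter percentile is the percentage of all protein-coding genes whose best promoter score was lower, with genes that have no promoter peak set at 0. The lowest percentile that a called gene could have was therefore 39.8, 39.5 and 48.4 in leptonema/zygonema, pachynema and diplonema. A rank can thus rise into diplonema while the score falls. A difference of at least 10 percentage points between substages was counted as a rank change. By this measure the 8 testis regulators had a median percentile of 76.2, 77.6 and 82.0 over the successive lists, whereas Tbp stood at 73.7, 87.9 and 79.4. Tbp was outranked by 4 of the 8 in leptonema/zygonema (Fhl5, Sox5, Tbpl1 and Taf4b), by Fhl5 alone in pachynema, and by 4 in diplonema (Tbpl1, Tcfl5, Fhl5 and Sox30). By best score Fhl5 was above Tbp and Gtf2a1l and Zmynd15 were below it in every list. With the scores of all promoter peaks of a gene summed, the genes above Tbp were 4 in leptonema/zygonema (Tcfl5, Sox30, Tbpl1 and Fhl5), 2 in pachynema (Tbpl1 and Sox30) and 6 in diplonema (all but Taf4b and Zmynd15). Fhl5 then stood below Tbp in pachynema (84.7 against 93.5) and Gtf2a1l above it in diplonema (74.0 against 72.4).

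**Figure D1:**
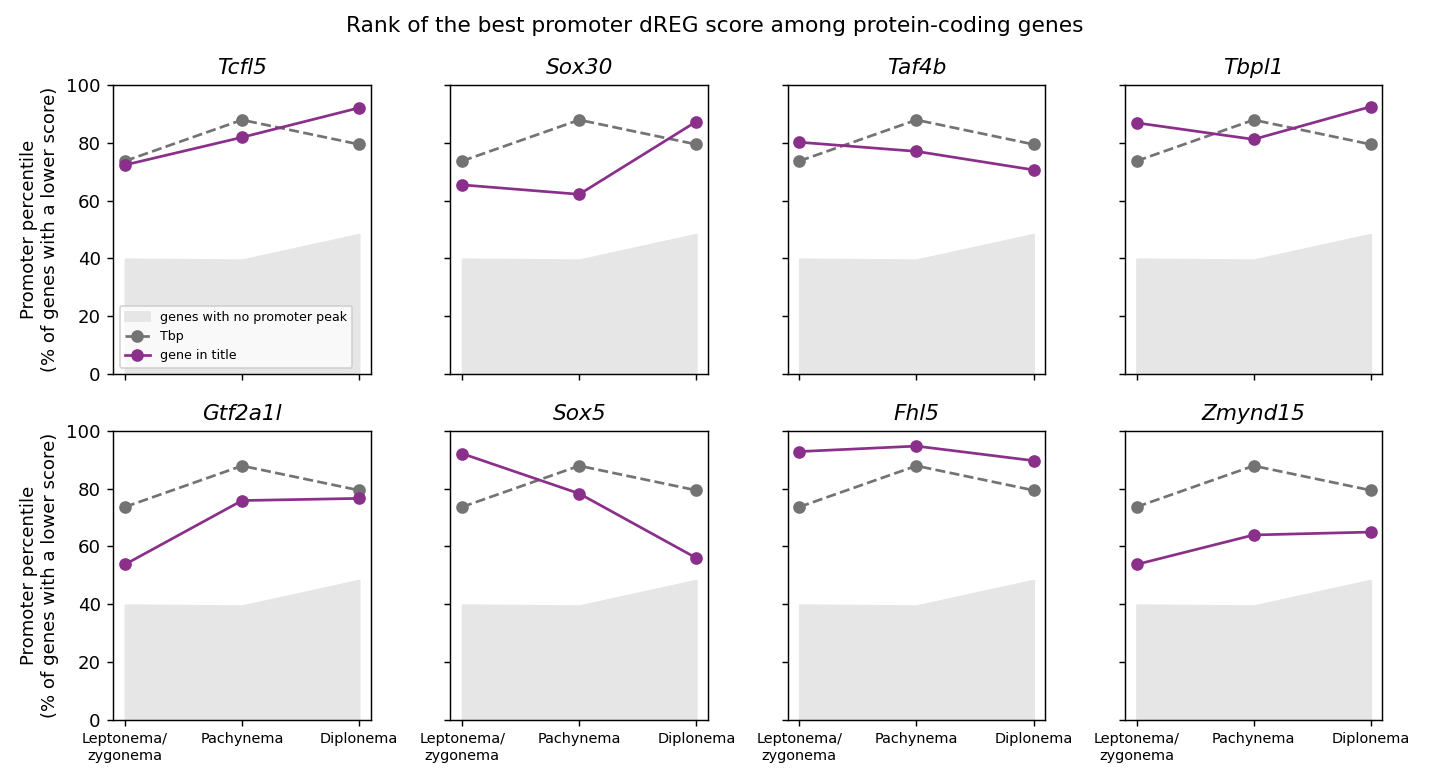
Promoter percentile (vertical axis, percent of protein-coding genes with a lower best promoter dREG score) in the 3 substages, with 1 panel for each of the 8 testis regulators (solid line) and Tbp repeated in each panel (dashed line). The grey area marks genes with no promoter peak. Tbp peaks in pachynema at 87.9, Tcfl5 climbs to 92.1 in diplonema, and Sox5 drops from 92.1 to 56.0.

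From leptonema/zygonema to pachynema, 3 of the 9 genes ranked at least 10 points higher, Gtf2a1l, Tbp and Zmynd15, against 14.6% of all genes called in both lists. In the other direction 1 of the 9, Sox5, ranked at least 10 points lower, against 14.5%. From pachynema to diplonema 3 of the 9 ranked higher, Sox30, Tbpl1 and Tcfl5, against 18.7%, and 1 ranked lower, Sox5 again, against 14.9%. Across the whole interval from leptonema/zygonema to diplonema 4 ranked higher (Gtf2a1l, Sox30, Tcfl5 and Zmynd15; background 25.8%) and 1 ranked lower (Sox5; background 20.2%). Zmynd15 ranked higher although its score was lower, at 0.667 in diplonema against 0.739 in leptonema/zygonema. With 9 genes, 1 gene is a large share, and these counts describe the named genes and the best score only. With summed scores, Tbp, Tbpl1 and Zmynd15 ranked higher and Gtf2a1l lower into pachynema, Gtf2a1l higher and Tbp lower into diplonema, and over the whole interval Zmynd15 alone passed the limit, upward. Ranked among called genes only, a scale on which the median gene itself moved by -4.37 points into diplonema, the genes lower in diplonema than in pachynema were 4 (Fhl5, Sox5, Taf4b and Tbp). On that scale, 3 ranked higher over the whole interval (Gtf2a1l, Sox30 and Tcfl5) and 2 ranked lower (Sox5 and Taf4b). By best score over all genes, Tbp and Fhl5 had their highest rank of the 3 in pachynema, as did 25.9% of all genes called in every list. With summed scores these were Sox5, Tbp, Tbpl1 and Zmynd15, and among called genes Fhl5, Gtf2a1l, Tbp and Zmynd15.

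**Figure D2:**
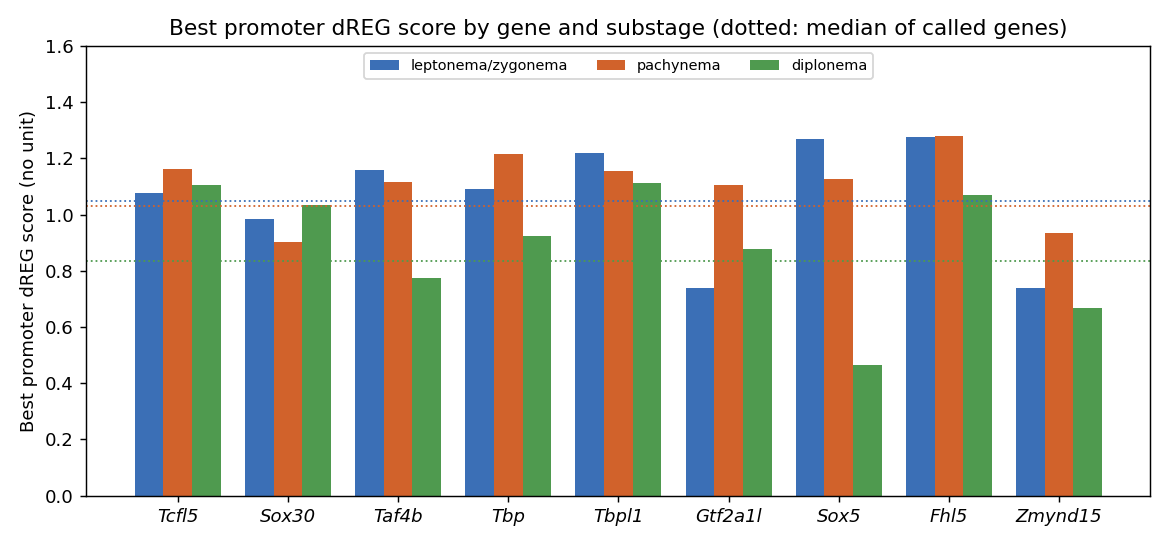
Best promoter dREG score (vertical axis, no unit) of each gene, with 1 bar per substage. Dotted lines give the median over all genes with a promoter peak in that list, which were 1.048, 1.03 and 0.8345 in leptonema/zygonema, pachynema and diplonema. Scores are not scaled between lists. The Sox5 bar in diplonema, at 0.464, is the lowest of all.

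Tbp (chr17:15499888-15528379, plus strand) had a best promoter score of 1.091 in leptonema/zygonema, then 1.215 in pachynema and then 0.923 in diplonema, in each case from a peak that covers its start. Its rank rose by 14.2 points into pachynema and then fell by 8.48 points, under the limit, into diplonema. With summed scores or with ranks taken among called genes only, that second step passed the limit, at -21.2 and -19.9 points. The gene has 10 annotated TSSs in 4 clusters, and only the first cluster, which holds all of its protein-coding starts, had a peak in any list. In all 3 lists the Tbp promoter peaks also lay under 1000 bp from a TSS of Psmb1, a proteasome subunit gene that starts nearby on the other strand, so the signal of the pair cannot be told apart. Promoters shared in this way are common, since 35.4% of genes with a promoter peak in pachynema shared one with another gene. The 3 genes with the percentile pattern most like that of Tbp over the 3 lists were Psmb1 (distance 0, the same peaks), Dync2h1 (1.28 percentage points) and Pdcd6ip (1.93).

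Tbpl1 (chr10:22703879-22731938, minus strand) ranked, by best score, above Tbp in leptonema/zygonema and diplonema and below it in pachynema. With summed scores it ranked above Tbp in pachynema too (96.4 against 93.5). Its best promoter scores were 1.218, 1.155 and 1.114, at percentiles of 86.9, 81.2 and 92.5. Its rank was higher by 11.3 points in diplonema than in pachynema although the score itself was slightly lower, and the median score of called genes was lower in the diplonema list (0.8345 against 1.03). If the scores of all promoter peaks of a gene were summed in place of taking the best one, this difference turned to -7.63 points and that from leptonema/zygonema to pachynema from -5.71 to 14.4. Tbpl1 had 4 promoter peaks in pachynema and 2 in diplonema. The strongest peak moved between its start sites: in leptonema/zygonema it covered the start at 22731447, and in pachynema and diplonema it covered the upstream start at 22731938. In pachynema the peak over the start at 22731447 was nearly as strong, at 1.098.

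Taf4b (chr18:14783245-14900359, plus strand) had, by best score, its highest promoter rank in leptonema/zygonema and its lowest in diplonema. Its best promoter score was 1.157, then 1.115, then 0.773, with percentiles of 80.2, 77.0 and 70.6. None of these steps reached 10 points, and the difference from leptonema/zygonema to diplonema, -9.58 points, fell just short. Ranked among called genes only, the step from pachynema to diplonema was -19.0 points and passed the limit. So did the difference from leptonema/zygonema to diplonema, with percentiles of 67.0 and 43.0 on that scale. Relative to Tbp its percentile differed by 6.50 points in leptonema/zygonema, by -10.9 in pachynema and by -8.83 in diplonema.

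Gtf2a1l (chr17:88668660-88715152, plus strand) had the largest rise of the 9 genes into pachynema by best score. The score was 0.739 in leptonema/zygonema, then 1.104 in pachynema and then 0.877 in diplonema, and the percentile went from 53.8 to 75.9 and 76.6. The pachynema signal lay in 1 peak of 850 bp over the start, whereas leptonema/zygonema had 3 adjoining peaks of 380, 430 and 450 bp over the same stretch. The direction was not the same when the peaks of a gene were added up, and with summed scores the step into pachynema was -15.1 points and the step into diplonema was 20.3 points.

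**Figure D3:**
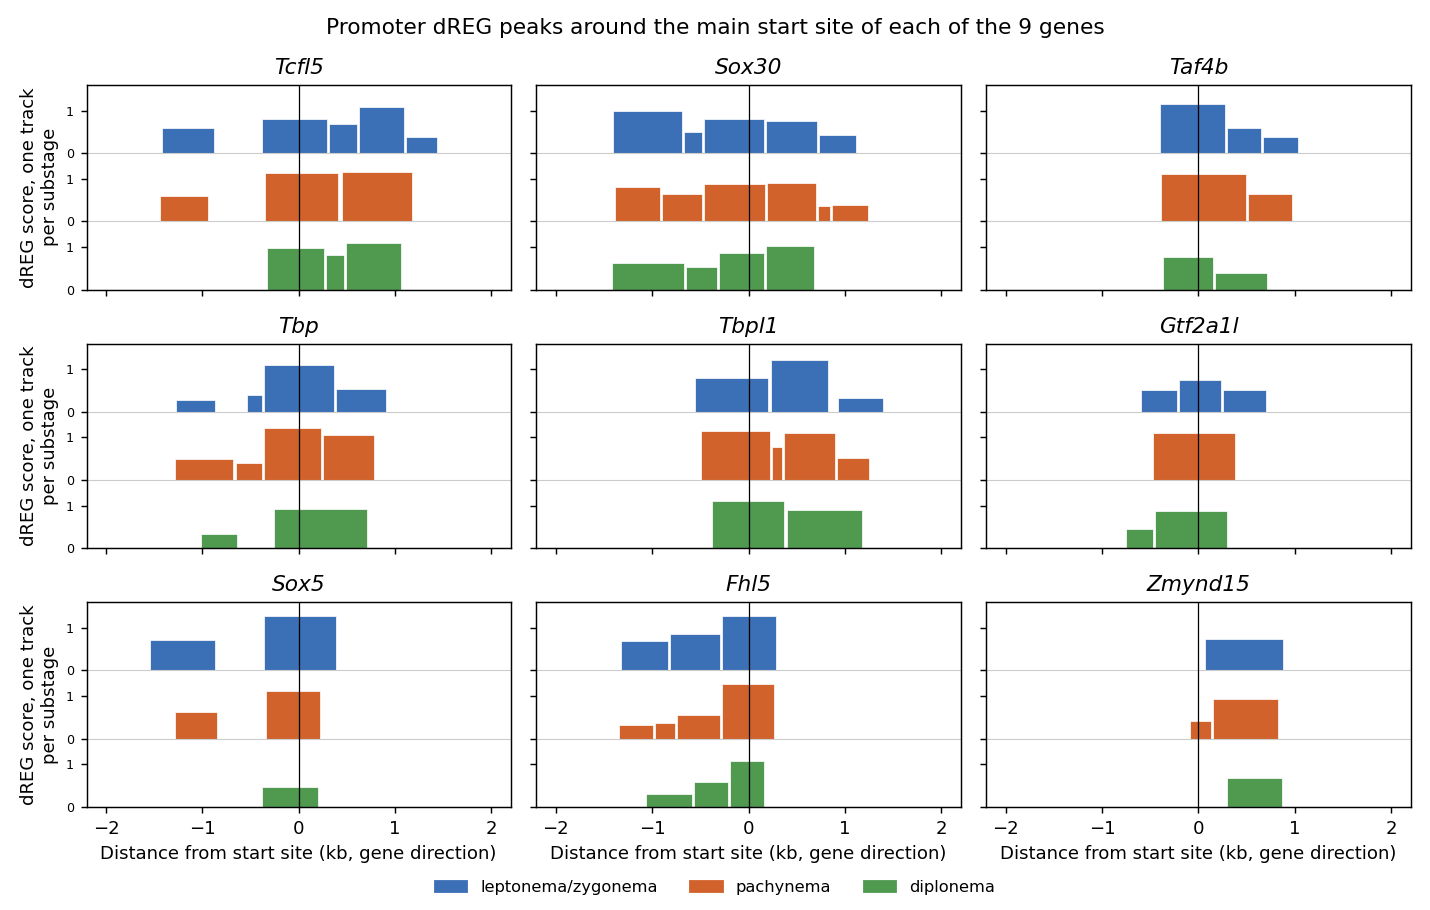
Promoter dREG peaks within 2.2 kb of the main start site of each gene (horizontal axis, distance in kb in the direction of transcription; bar height, dREG score, with 1 track per substage). Gtf2a1l shows 3 narrow peaks in leptonema/zygonema and 1 wide peak in pachynema, and Sox30 shows a row of adjoining peaks in every track. Peaks at the distal starts of Sox5 lie outside the range drawn.

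Tcfl5 (chr2:180621956-180642708, minus strand) ranked higher at each substage. Its best promoter score was 1.076 in leptonema/zygonema, then 1.161 in pachynema and then 1.107 in diplonema, at percentiles of 72.3, 81.9 and 92.1. The first step, 9.57 points, was under the limit of 10 and the second, 10.2 points, was just over it. Among called genes only the first step was 16.1, past the limit, and with protein-coding starts or the nearest start only the second was 9.96, under it. With summed scores the percentiles were 96.3, 90.7 and 97.7, so that the first step turned downward and the second was 7.02 points. From leptonema/zygonema to diplonema the rank rose by 19.8 points. In each list the best peak lay inside the gene, 267, 87 and 127 bp from the nearest start, and the peak over the upstream start at 180642708 scored 0.797, 1.148 and 0.97. A second promoter element about 1 kb upstream was called in leptonema/zygonema (0.599) and pachynema (0.589) and not in diplonema. The genes most like Tcfl5 in percentile over the 3 lists were Ercc6 (distance 1.03 percentage points), Snx19 (1.41) and Smim10l1 (1.57).

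Sox30 (chr11:45980310-46017994, plus strand) had, by best score, the largest rise of the 9 genes between pachynema and diplonema, 25.2 points. The best promoter scores were 0.986, 0.903 and 1.034 and the percentiles were 65.4, 62.2 and 87.3. The best peak was not the same one throughout. In leptonema/zygonema it was a peak 690 bp upstream of the single annotated start, and in pachynema and diplonema it was the peak 191 and 181 bp downstream. The peak that covers the start scored 0.796, 0.887 and 0.859. With 5, 6 and 4 promoter peaks, Sox30 stood at percentiles of 95.9, 98.3 and 98.4 by summed score, and by that measure the step into diplonema was 0.137 points. Fndc3a (distance 1.25 percentage points), Cnppd1 (1.69) and Retreg2 (1.69) had the most similar percentiles, and Cnppd1 and Retreg2 had identical values.

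Fhl5 (chr4:25199908-25242876, minus strand) had, by best score, the highest promoter percentile of the 9 genes in leptonema/zygonema and pachynema. A peak over its single start scored 1.277, 1.281 and 1.07, at percentiles of 92.8, 94.7 and 89.7. None of the steps reached 10 points, but ranked among called genes only the step into diplonema was -11.3. Behind it stood a row of weaker upstream peaks, 2, 3 and 2 in the successive lists, of which the strongest scored 0.842, 0.549 and 0.592.

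Zmynd15 (chr11:70459433-70466202, plus strand) was among the lowest, with Gtf2a1l at the same value in leptonema/zygonema, Sox30 in pachynema and Sox5 in diplonema. Its best promoter score was 0.739 in leptonema/zygonema, then 0.936 in pachynema and then 0.667 in diplonema, with percentiles of 53.8, 64.0 and 65.0. The rise of 10.2 points into pachynema was at the limit and came to 9.90 points when promoter peaks had to lie under 500 bp from a start and to 9.88 with protein-coding starts only. The promoter is shared with Cxcl16, a chemokine gene on the other strand, and the signal of the pair cannot be told apart.

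Sox5 (chr6:143828425-144781977, minus strand) spans 953553 bp, and by best score its rank differed most of the 9 genes between leptonema/zygonema and diplonema, by -36.1 points. Its 12 TSSs form 4 clusters. The internal cluster at 143947088 to 143947106, from which short transcripts start, was called in all 3 lists, with a peak over the start that scored 1.269 in leptonema/zygonema, then 1.127 in pachynema and then 0.464 in diplonema. At a minimum score of 0.5 Sox5 was the only one of the 9 genes to lose its promoter call, in diplonema, which left 8. The percentiles were 92.1, 78.3 and 56.0, so the rank fell by 13.8 points into pachynema and fell by 22.3 points into diplonema. The other protein-coding starts, a cluster at 144209452 to 144209568 that lies 262 kb upstream, had no promoter peak in any list, nor had the cluster 257 kb upstream. The most distal cluster, 835 kb upstream, behaved differently. It had no peak in leptonema/zygonema, 1 in pachynema (0.472, 159 bp from the start) and 3 in diplonema, of which the strongest scored 0.377 and 1 at 0.294 covered a start. These transcripts are annotated as non-coding.

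The direction into pachynema at Sox5 turned when its starts were added up. With summed scores, which add the distal peaks to the internal one, the step into pachynema was 5.26 points and that into diplonema -1.98. At the internal start alone the best score and the number of promoter peaks, 2, 2 and 1, were both lowest in diplonema.

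**Figure D4:**
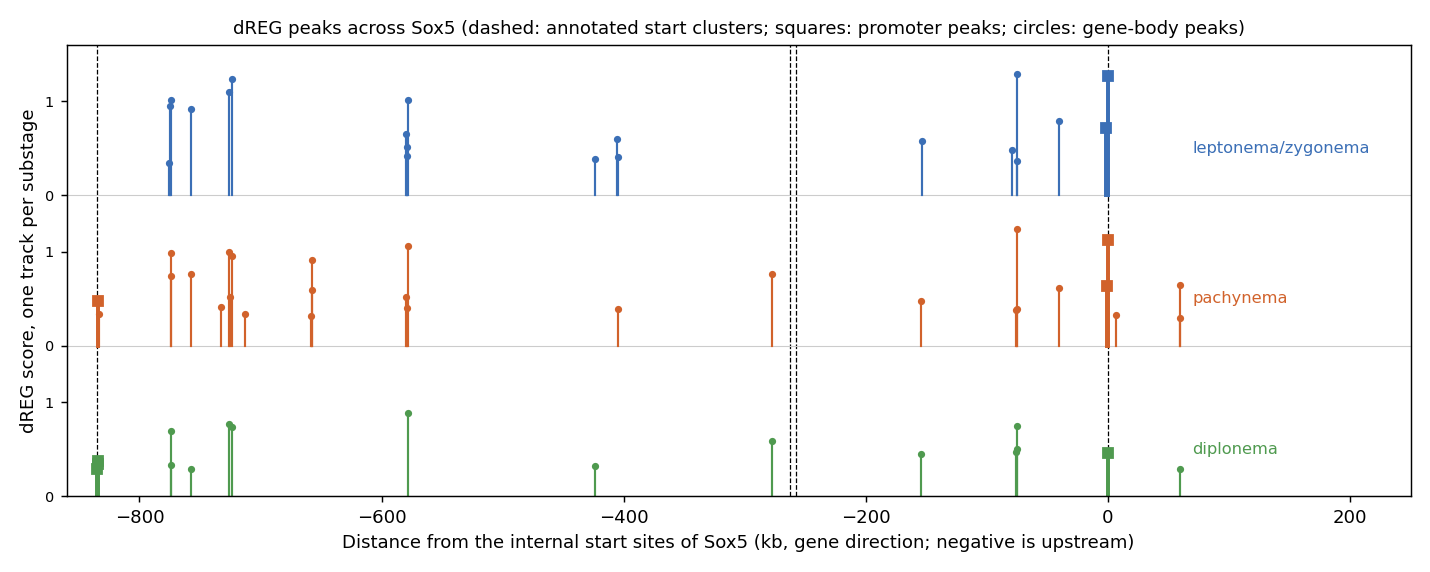
dREG peaks across Sox5, by distance in kb from the internal start cluster (horizontal axis, negative is upstream) and dREG score (height, 1 track per substage). Dashed lines mark the 4 annotated start clusters, squares are promoter peaks and circles are gene-body peaks. The internal start carries the tall square in leptonema/zygonema and pachynema, the clusters 257 and 262 kb upstream carry none, and the distal cluster gains squares in pachynema and diplonema.

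The sequence upstream of the starts differed in kind between the members. RefSeq (GRCm38.p6) promoters, 250 bases before and 50 after the start, were found for 7 of the 9 genes, Taf4b and Zmynd15 not being among them. In the 250 upstream bases the median of 17492 protein-coding promoters was 10 CpG. Sox30 had 23, Tcfl5 22, Tbpl1 19, Gtf2a1l 13 and Tbp 11, whereas Sox5 had 3 and Fhl5 2. The GC content ran from 39.6% at Sox5 to 70.4% at Tcfl5. Tcfl5 is shown for the CpG-rich kind, Gtf2a1l and Tbp for the middle, and Fhl5 and the internal Sox5 start for the CpG-poor kind. Bases in annotated exons were left out, which shortens Tcfl5, Tbp and Fhl5. The sequences run 5′ to 3′ on the strand of the gene. Capitals mark matches, on either strand, to short words for the GC box, MYB, CCAAT box, CRE, RFX, E-box and TATA box, whose letters are given with their counts in the next paragraph.
Tcfl5, chr2:180642709-180642941, minus strand: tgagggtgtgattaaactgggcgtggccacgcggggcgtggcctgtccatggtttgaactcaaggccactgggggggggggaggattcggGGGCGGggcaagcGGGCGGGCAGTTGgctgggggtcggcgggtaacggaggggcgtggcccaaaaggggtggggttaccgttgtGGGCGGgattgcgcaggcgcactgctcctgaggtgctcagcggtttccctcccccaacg
Gtf2a1l, chr17:88668410-88668659, plus strand: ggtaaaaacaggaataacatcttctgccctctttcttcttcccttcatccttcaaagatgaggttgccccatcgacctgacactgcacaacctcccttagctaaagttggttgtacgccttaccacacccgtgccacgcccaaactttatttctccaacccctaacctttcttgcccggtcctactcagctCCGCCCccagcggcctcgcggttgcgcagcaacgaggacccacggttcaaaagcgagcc
Tbp, chr17:15499752-15499887, plus strand: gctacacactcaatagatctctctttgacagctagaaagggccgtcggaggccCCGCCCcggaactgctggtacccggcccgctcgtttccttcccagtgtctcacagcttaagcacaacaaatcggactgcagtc
Fhl5, chr4:25242877-25243102, minus strand: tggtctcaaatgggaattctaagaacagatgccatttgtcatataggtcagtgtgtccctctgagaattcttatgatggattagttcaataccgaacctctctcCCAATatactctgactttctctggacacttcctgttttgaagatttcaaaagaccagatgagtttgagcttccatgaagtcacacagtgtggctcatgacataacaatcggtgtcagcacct
Sox5, chr6:143947107-143947356, minus strand: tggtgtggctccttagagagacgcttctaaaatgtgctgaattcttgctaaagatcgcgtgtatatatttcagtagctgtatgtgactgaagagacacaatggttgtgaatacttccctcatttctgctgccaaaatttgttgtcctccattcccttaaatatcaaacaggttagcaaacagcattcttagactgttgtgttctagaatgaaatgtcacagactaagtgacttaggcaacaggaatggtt

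GC boxes (GGGCGG or its complement) were in 5 of the 7 promoters, all but Fhl5 and Sox5, and in 46.3% of all promoters. Tcfl5 had 5 matches in its 300 bases, some overlapping. At Tcfl5 a match to GGCNGTT at -142 to -136 overlapped a match to CAGTTG at -140 to -135, positions being counted from the RefSeq start. These are core letters of the site bound by MYB factors, of which A-MYB is the pachytene member, and both sit against a GC box at -147 to -142. GGCNGTT was in 1 of the 7 promoters (12.2% of all) and CAGTTG in 2 (Tcfl5 and Tbp; 12.4%). CCAAT was in 2 (Fhl5 and Sox30; 39.0%), TGACG, the core of a cAMP response element (CRE), in 1 (Tbp; 23.8%) and ATTGTT, letters of a SOX site, in 1 (Fhl5; 9.49%). TATAAA was in 0 of 7 (13.3% of all promoters), the full CRE TGACGTCA in 0 (2.34%), the RFX words GTTGCCA or GTTGCTA in 0 (7.56%) and the E-box CACGTG in 0 (7.90%). Matches of this kind describe letters in a window and not bound sites. The Sox5 window held none of these words.

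Away from the promoters, gene-body peaks numbered 29, 35 and 17 over the successive lists, and most were in Sox5, without which there were 11, 10 and 4. With lists of equal size they numbered 18, 18 and 17, so the lower count in diplonema was all but gone. In leptonema/zygonema 6 of the 9 genes had at least 1 (background 28.6%), in pachynema 5 (26.9%) and in diplonema 4 (15.8%), and 6 had one in any substage (33.8%). Gtf2a1l, Fhl5 and Zmynd15 had none in any list. Peaks of the 3 lists were merged into elements where they overlapped or touched, which gave 16 promoter and 35 gene-body elements. Elements called in all 3 lists were 11 of 16 at promoters and 12 of 35 in gene bodies, and without Sox5 10 of 12 and 4 of 10. Single-list elements were 1 of 16 at promoters (diplonema) and 15 of 35 in gene bodies (9 in pachynema and 6 in leptonema/zygonema), and without Sox5 they were 0 of 12 and 4 of 10. Over all merged elements, 27.5% of 20976 at promoters of protein-coding genes and 52.1% of 16917 inside these genes and away from their promoters were in a single list, and 52.4% and 19.0% were in all 3.

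Tbpl1 held the single strongest gene-body peak of the set. This intronic element, chr10:22716041-22716440, scored 1.309 in leptonema/zygonema, above the Tbpl1 promoter itself, and was not called in pachynema or diplonema. It lay 9656 bp from the nearest annotated start and overlapped no annotated exon. Its central 200 bases are shown because it is the clearest substage-limited element in these genes. They come from the same assembly and hold none of the motif words listed for the promoters. Capitals mark a tandem repeat of 9 bases (bases 90 to 107), a feature that was picked after the sequence was seen. Of the 35001 leptonema/zygonema peaks away from starts, 2.07% held a direct repeat of any 9-base unit in their central 200 bases. Simple repeats of shorter units were counted in this share.
Tbpl1 intronic element, chr10:22716141-22716340, minus strand: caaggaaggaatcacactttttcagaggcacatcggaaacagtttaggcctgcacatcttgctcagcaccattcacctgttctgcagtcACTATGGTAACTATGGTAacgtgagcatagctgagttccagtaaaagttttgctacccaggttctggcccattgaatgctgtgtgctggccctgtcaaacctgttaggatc

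Taf4b had a comparable intronic element about 87.9 kb inside the gene that scored 1.221 in leptonema/zygonema and 0.994 in pachynema and was not called in diplonema. Beside it a weaker element was called in leptonema/zygonema only (0.515). Neither was called in diplonema, where the promoter score of Taf4b was also lower and the list as a whole was shorter.

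Tcfl5 and Sox30 kept their main gene-body elements in all 3 lists. The Tcfl5 element, chr2:180634711-180636000, lay 7.4 kb from the start over an exon and scored 1.096, 1.095 and 0.945. Sox30 had an element 2.8 kb from the start that scored 1.056, 1.001 and 0.619, above its own promoter in leptonema/zygonema and pachynema, and another at 26.6 kb that scored 0.918, 0.941 and 0.363. A weak Sox30 element at 12.1 kb was called in leptonema/zygonema and pachynema (0.342 and 0.466) and not in diplonema. Tbp had gene-body elements only at its far end, where the strongest scored 0.959, 1.156 and 0.714. These peaks lay under 1000 bp from a start of Pdcd2, the neighbouring gene, so Tbp had no intragenic element clear of another gene's start.

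**Figure D5:**
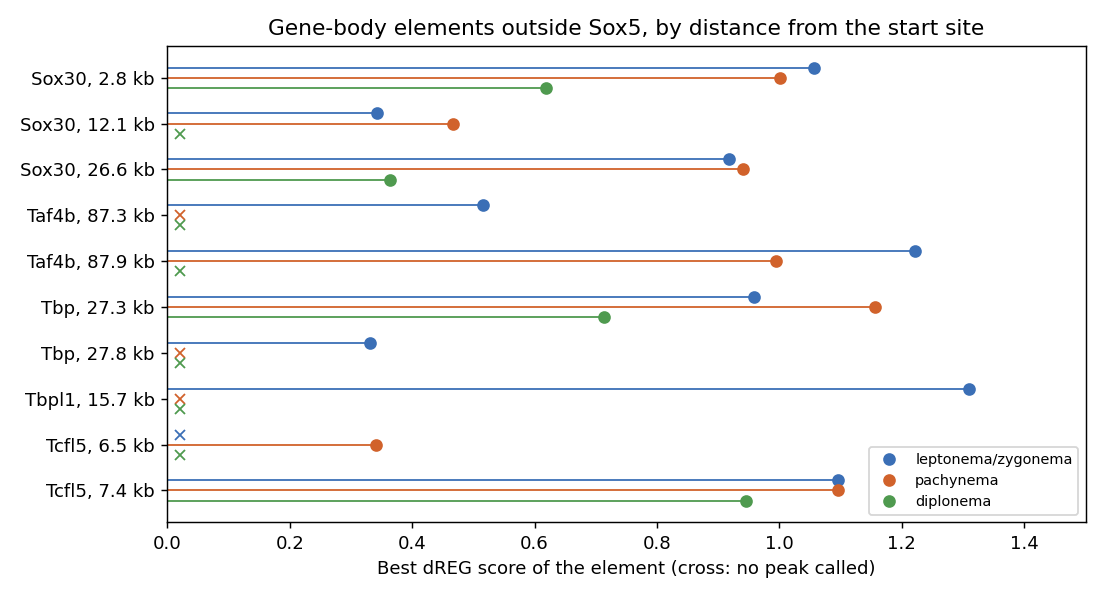
Best dREG score (horizontal axis, no unit) of the 10 gene-body elements outside Sox5, by gene and distance in kb from the start site, with 1 point per substage and a cross where no peak was called. The Tbpl1 element reaches 1.309 in leptonema/zygonema and is uncalled in the other lists, and the Tcfl5 element at 7.4 kb stays between 0.945 and 1.096.

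Sox5 alone carried 25 of the 35 gene-body elements. Of these 8 were called in all 3 lists, 8 in pachynema only, 3 in leptonema/zygonema only, 3 in leptonema/zygonema and pachynema, 2 in pachynema and diplonema, and 1 in leptonema/zygonema and diplonema. The gene is long, and per 100 kb it had 1.89, 2.62 and 1.36 gene-body peaks, against 1.63, 1.45 and 0.666 over all protein-coding genes. Rates were higher in every list for Tcfl5 (9.64, 19.3 and 4.82), Sox30 (7.96, 7.96 and 5.31) and Tbp (10.5, 7.02 and 3.51). Taf4b was lower than Sox5 in every list, Tbpl1 was higher in leptonema/zygonema only (3.56), and Gtf2a1l, Fhl5 and Zmynd15 had none. The strongest element lay by the start of the antisense transcript Sox5os1, 74405 bp upstream of the internal start, and scored 1.287, 1.238 and 0.747. An element 256129 bp from the nearest start scored 1.011, 1.062 and 0.887, and was the strongest of the Sox5 peaks in diplonema. Elements by Sox5it and Sox5os3 (1.093, 0.992 and 0.772) and by Sox5os4 (1.015, 0.984 and 0.689) were also called throughout. Among those called in pachynema only, 1 scored 0.914, and an element called in pachynema and diplonema and not before scored 0.759 and 0.587. In diplonema 6 intragenic elements of Sox5 had higher scores than its internal promoter peak. Among them were those by Sox5os1, by Sox5it and Sox5os3, and by Sox5os4, which lay under 1000 bp from starts of these other genes.

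Several peaks lay near the limit of 1000 bp. Inside it were, among others, pachynema peaks of Fhl5 at 995 bp (score 0.309), Tcfl5 at 943 bp (0.589) and Sox30 at 920 bp (0.819). Outside were, among others, a Tbp peak in diplonema at 1038 bp (0.432) and a Sox5 peak in pachynema at 1109 bp (0.333). A Tbp peak also lay at 1298 bp in leptonema/zygonema (1.041) and at 1308 bp in pachynema (1.07). None of these peaks scored above the best promoter peak of its gene in that list.

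The other genes of the initiation machinery were nearly all called. Of 30 general initiation factor genes, 30, 29 and 28 had a promoter peak, against 60.2%, 60.5% and 51.6% of all protein-coding genes. Their median percentile was 75.7, 81.8 and 81.5. Those not called were Ercc2 in pachynema and diplonema and Taf6 in diplonema. Into pachynema 7 of 29 ranked at least 10 points higher and 4 lower, and into diplonema 2 of 28 ranked higher and 5 lower. The shares over all genes, given above, were 14.6% and 14.5% into pachynema and 18.7% and 14.9% into diplonema. Of 8 further genes, paralogs of these or members of other alternative complexes, 7, 7 and 6 were called (medians 66.7, 78.2 and 86.6). Tbpl2, the oocyte TBP paralog, was not called in any list. Taf7l, the germ cell form of TAF7, stood at 67.4, 77.0 and 90.9, while its best score was highest in pachynema (1.014, 1.115 and 1.088).

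Related genes of the other members were mixed, and their counts stand beside 60.2%, 60.5% and 51.6% of all protein-coding genes called in the 3 lists. Of 17 further SOX genes 10, 12 and 11 were called, close to that background. Their median percentiles of 40.8, 42.0 and 52.3 lay near the lowest that a called gene could have (39.8, 39.5 and 48.4). Sox10, Sox14, Sox15 and Sox21 were called in no list. All 8 FHL and CREM partner genes were called in each list (medians 72.7, 69.9 and 69.1). Crem, whose product FHL5 coactivates, stood at 96.8, 97.9 and 98.2, and Fhl4, another testis LIM protein, at 76.9, 91.1 and 86.2. Kif17, the kinesin that moves FHL5 out of the nucleus, went from 81.8 to 65.2 and 54.2. Of 10 histone deacetylase and MYND finger genes related to Zmynd15, 8, 9 and 7 were called (medians 62.6, 68.6 and 58.1).

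The labelled cells were checked against marker promoters, beside 60.2%, 60.5% and 51.6% of all protein-coding genes called in the 3 lists. A count near these shares says little about the cells present. All 8 meiotic prophase markers and all 4 pachytene markers were called in each list, and 6 of 7 round spermatid markers were too, Tnp2 being the exception. Prm1 and Prm2 had identical best scores in each list (0.676, 0.561 and 0.747), so they may not be separate counts. Of 6 spermatogonial markers 4 were called in each list, close to that background in leptonema/zygonema and pachynema. Of 6 Sertoli markers 2, 3 and 3 were called, with Gata4 the highest in leptonema/zygonema and pachynema (0.925 and 0.946) and Sox9 in diplonema (0.564), while Amh, Amhr2 and Rhox5 were in no list. Of 6 Leydig markers 0, 2 and 1 were called and of 4 macrophage markers 1, 0 and 0. Sox9 belongs to both the SOX and the Sertoli list. Cell mixture in the fractions was not tested for its part in the values of the 9 genes.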

How the data were processed

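Reads were collapsed by molecular identifier (PRINSEQ lite) and their adapters cut off (cutadapt) by the authors, who mapped them with BWA to mm10 plus a ribosomal RNA unit, merged the 4 libraries of each substage and ran dREG with default settings. Its version is not given in the sources used here. Each deposited peak has a dREG score, whose range is open and whose scale may differ between lists, and a p-value, deposited by the authors as under 0.05 for every peak, which entered only 1 alternative as a filter.

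Peaks were matched to GENCODE M21 genes on mm10. Coordinates are 1-based and include both ends. A promoter peak had its edge under 1000 bp from a TSS. Starts under 500 bp apart formed a cluster. The percentile was taken over 21938 protein-coding genes, and a change of 10 percentage points was counted. Likeness was the Euclidean distance of percentiles over the 3 lists. The named genes are the 9 members, genes sharing their promoter peaks, the 3 nearest genes in likeness for Tbp, Tcfl5 and Sox30, and the exceptions and examples of the related lists. Members, lists and comparisons were chosen with earlier results of these data known, and the examples named within lists after their values were seen. With 1 pooled list per substage no test was made. Motifs were searched on both strands. The steps were tested on simulated data. Python 3.11.15, numpy 2.4.6, pandas 2.3.3, pysam 0.24.0 and matplotlib 3.10.9 were used. The alternatives are described at the end.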

Additional observations from a re-analysis of the deposited data

How the results depend on the processing

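No paired analysis was possible because the peaks of a substage were called on its merged libraries, which also left no replicate to omit. All 9 genes kept a promoter peak in every list under the alternatives tried, except that 8 did in diplonema at a score of at least 0.5 (Sox5 was lost). Promoter peaks numbered 14, 14 and 12 in leptonema/zygonema, pachynema and diplonema when adjoining peaks were joined, 19, 21 and 23 with lists of equal size, which turned the order of the substages, and 15 in diplonema at a score of at least 0.5. Gene-body peaks numbered 18, 18 and 17 with lists of equal size, 21 and 10 in pachynema and diplonema at a score of at least 0.5, and 10 in diplonema when peaks had to lie 1000 bp or more from the starts of any gene. Leaving out Sox5, an alternative added after seeing the data, gave 11, 10 and 4. The median percentile of the 8 testis regulators was 79.9, 82.1 and 83.0 with summed scores, 77.1 in leptonema/zygonema with protein-coding starts only, 76.9, 78.3 and 82.5 with the nearest start only, and 60.5, 63.1 and 65.1 when ranked among called genes only, also added after seeing the data. For Tbp the values were 81.0, 93.5 and 72.4 with summed scores, 74.6 in leptonema/zygonema with protein-coding starts, 74.4 and 80.1 in leptonema/zygonema and diplonema with the nearest start, and 56.2, 80.0 and 60.2 among called genes. With summed scores 4, 2 and 6 testis regulators outranked Tbp. Summed scores also turned the direction of Tbpl1 (14.4 points), Gtf2a1l (-15.1) and Sox5 (5.26) from leptonema/zygonema to pachynema and of Tbpl1 from pachynema to diplonema (-7.63), and took Sox30 (0.137) and Sox5 (-1.98) under 10 points from pachynema to diplonema. From pachynema to diplonema Tbp came to -21.2 points with summed scores and -19.9 among called genes, both past the limit. Among steps under 10 points the sign changed with summed scores for Tcfl5 (-5.62), Sox30 (2.42) and Fhl5 (-5.25) into pachynema and for Taf4b (1.92), Fhl5 (3.65) and Zmynd15 (-0.957) into diplonema. It also changed for Sox30 into pachynema (5.97) with edges under 500 bp, and for Gtf2a1l (-5.39) and Zmynd15 (-8.28) into diplonema among called genes. Of the 7 genes searched, the 200 bp at the best pachynema peak held CAGTTG in 1 (7.84% of all such windows), TGACG in 2 (25.8%), CACGTG in 1 (7.68%), GGGCGG in 3 (50.7%) and CCAAT in 0 (28.7%). The 500 bp around the start held GGCNGTT in 3 (19.5%), the RFX words in 2 (10.5%) and CACGTG in 1 (10.5%). Differences in depth between the lists were not tested for their part in these values, and an uncalled element is not shown to be inactive.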

Other observations

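The deposited p-value did not always follow the dREG score. Of the 162 peaks of the 9 genes, 49 carried a p-value of 0, and 14 of these had a score under 0.5, among them the Fhl5 peak at 995 bp (0.309) and the Tbp upstream peak in diplonema (0.33). Over the whole lists, 9.63%, 9.50% and 10.0% of peaks, in order of substage, had a p-value of 0 with a score under 0.5. For this reason the score and not the p-value was used to rank promoters.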
